A study of Mus musculus with 4 samples.

Results

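The genes described here are 35 glycolysis and hypoxia genes, of 36918 gene names on the array: the enzymes and transporters that carry glucose to pyruvate and lactate, the kinases that gate pyruvate, and the subunits, hydroxylases and targets of the hypoxia-inducible factors (HIF). They were matched by gene name, and the list was chosen with earlier results of these data known. Each gene was represented by its brightest probe, taken as a mean over the 4 arrays, a choice of probe that used no difference between groups. A gene was tested where 2 or more arrays had that probe well above background, which held for 33 of the 35 members and for 19092 gene names in all. Of the 33, 31 were well above background on all 4 arrays. Slc2a3, a high-affinity glucose transporter, had 0 arrays well above background. Car12, a cell-surface carbonic anhydrase, was well above background only on the halofuginone K5 array, so neither was tested.

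The arrays hold RNA of pancreatic cancer cells from C57BL/6 mice, named K5 and K6, after 24 hours with 100 nM halofuginone or with DMSO as the control. Halofuginone blocks charging of tRNA with proline. Each line gave 1 halofuginone array and 1 control array, so the groups are 2 halofuginone arrays (K6 and K5) against 2 control arrays, and K6 against K5 within each treatment. The design text has an F in place of the H of the sample titles, taken to mean the same samples. How K6 differs from K5 is not stated in the labels, and nothing says that the samples were separate cultures, so p-values measure only the spread between these samples.

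Glycolysis converts glucose to pyruvate in the cytosol. Most of its steps are served by several isoenzymes encoded by different genes, and lactate dehydrogenase and the monocarboxylate transporters dispose of the pyruvate as lactate. HIF is a transcription factor made of an oxygen-labile alpha subunit (Hif1a or Epas1) and a stable partner. With oxygen present, the prolyl hydroxylases of the Egln family mark the alpha subunit for destruction. When the alpha subunit accumulates it raises transcription of many glycolytic genes and of genes for pH control and mitophagy. Pancreatic tumours are known for poor perfusion and for heavy use of glucose.

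HIF binds DNA at the letters ACGTG or GCGTG, read on either strand. The 250 bases upstream of a transcription start are printed for some of the members that fell after halofuginone. Aldoc, Slc16a3 and Egln3 each stand with a paralog among the members that did not pass the test (Aldoa, Slc16a1 and Egln1). Bnip3 and Ankrd37, which also fell, are printed because they hold several copies of these letters. The printed windows are RefSeq sequences of build GRCm38.p6, 5′ to 3′ on the gene's strand, ending at the base before the most upstream annotated start. Capitals mark ACGTG and GCGTG on either strand; a palindrome such as CACGTG, which is also the E-box letters read by other factors, is counted on both strands.
Aldoc, chr11:78322823-78323072, plus strand: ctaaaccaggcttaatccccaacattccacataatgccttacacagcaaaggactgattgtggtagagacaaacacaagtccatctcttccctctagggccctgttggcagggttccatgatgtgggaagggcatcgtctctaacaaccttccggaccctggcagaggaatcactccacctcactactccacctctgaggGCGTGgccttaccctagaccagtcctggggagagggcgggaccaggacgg
Aldoa, chr7:126800448-126800697, minus strand: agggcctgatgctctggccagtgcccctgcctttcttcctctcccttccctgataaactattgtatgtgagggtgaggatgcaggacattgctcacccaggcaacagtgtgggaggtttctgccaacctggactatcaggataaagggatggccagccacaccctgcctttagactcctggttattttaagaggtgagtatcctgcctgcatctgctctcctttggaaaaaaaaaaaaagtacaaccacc
Slc16a3, chr11:120948817-120949066, plus strand: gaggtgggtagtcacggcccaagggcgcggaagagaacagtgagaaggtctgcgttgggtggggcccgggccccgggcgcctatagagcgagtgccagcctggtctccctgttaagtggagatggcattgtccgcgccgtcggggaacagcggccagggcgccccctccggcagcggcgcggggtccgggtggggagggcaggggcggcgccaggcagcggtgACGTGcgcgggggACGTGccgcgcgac
Slc16a1, chr3:104638414-104638663, plus strand: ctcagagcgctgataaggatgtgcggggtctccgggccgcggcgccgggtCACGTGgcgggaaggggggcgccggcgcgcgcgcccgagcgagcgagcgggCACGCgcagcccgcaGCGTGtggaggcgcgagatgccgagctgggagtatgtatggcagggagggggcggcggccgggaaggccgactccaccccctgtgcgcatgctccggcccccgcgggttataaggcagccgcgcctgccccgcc
Egln3, chr12:54203875-54204124, minus strand: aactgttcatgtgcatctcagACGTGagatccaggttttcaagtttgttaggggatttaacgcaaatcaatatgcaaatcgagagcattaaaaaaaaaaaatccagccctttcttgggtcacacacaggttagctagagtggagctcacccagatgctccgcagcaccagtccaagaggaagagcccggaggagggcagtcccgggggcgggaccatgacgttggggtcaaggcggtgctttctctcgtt
Egln1, chr8:124949255-124949504, minus strand: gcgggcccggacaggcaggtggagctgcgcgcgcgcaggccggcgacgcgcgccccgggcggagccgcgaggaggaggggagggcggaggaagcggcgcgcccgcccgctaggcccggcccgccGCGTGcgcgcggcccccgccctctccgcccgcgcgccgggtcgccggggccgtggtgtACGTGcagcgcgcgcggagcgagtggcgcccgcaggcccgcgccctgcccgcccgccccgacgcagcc
Bnip3, chr7:138909507-138909756, minus strand: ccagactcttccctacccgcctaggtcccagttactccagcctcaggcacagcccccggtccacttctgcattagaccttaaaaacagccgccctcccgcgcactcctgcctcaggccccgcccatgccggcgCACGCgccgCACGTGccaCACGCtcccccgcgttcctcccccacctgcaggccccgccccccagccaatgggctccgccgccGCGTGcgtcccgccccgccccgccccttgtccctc
Ankrd37, chr8:45999851-46000100, minus strand: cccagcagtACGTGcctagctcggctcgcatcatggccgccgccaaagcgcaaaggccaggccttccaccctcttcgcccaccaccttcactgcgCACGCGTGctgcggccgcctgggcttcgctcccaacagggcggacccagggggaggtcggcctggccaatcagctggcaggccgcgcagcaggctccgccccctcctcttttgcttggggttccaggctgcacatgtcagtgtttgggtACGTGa

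Such windows were found for 31 of the 35 members, and none was matched for Bnip3l, Slc2a3, Ndrg1 and Epas1. ACGTG or GCGTG stood before at least 1 annotated start of 27 of these 31 members (87.1%). The same held for 41.5% of 27025 genes with windows, and for 38.6% of 32851 single windows. Among the members that fell after halofuginone it was 11 of 12, with Gpi1 the exception, and among the tested members that did not pass the test it was 16 of 18. So the letters stood at a like share before members that fell and members that did not. The Aldoc window holds a single GCGTG whose first base lies 50 bases before the start. The Aldoa window shown holds none, whereas windows of its later starts hold 1. Slc16a3 has copies of ACGTG 27 and 14 bases before the start, and Slc16a1 holds 4 matches, of which a pair is one CACGTG. Ankrd37 holds 4 and Bnip3 holds 5. Of the members that fell and are not printed, the most upstream window holds 4 matches for Pdk3 and 2 for Pfkm. It holds 1 each for Pfkl, Ldhb, Pdk1 and Car9, and 0 for Gpi1. The letters CACGTG occurred before 6 members and in 6.02% of all windows. TGATGNAA, a spelling of the element that ATF4-type factors read, occurred before 0 members and in 3.45% of all windows. A match is a description of the letters in this window and was not tested as a binding site.

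Values below are relative log2 signals: log2 of an array's processed signal minus its 75th percentile, so 0 is the 75th percentile of that array. They are compared only for the same probe across arrays. Spots well above background made up 53.1% to 54.0% of each halofuginone array and 47.2% to 48.6% of each control array. All 10 epithelial and ductal markers were well above background on all 4 arrays, with a summed level (log2) of 9.92 to 9.94 on halofuginone arrays and 9.46 to 9.84 on control arrays. Muc1 alone among the 10 fell (-3.40), and 0 rose. The sum is carried by its brightest genes, Krt18 and Krt8 among them, and hides the fall of Muc1. The 6 immune markers reported here were well above background on all 4 arrays. Their summed level was 3.38 to 3.82 on halofuginone arrays and 4.85 to 4.99 on control arrays, so the groups did not overlap. Without Cd14, which fell, the sum was 3.24 to 3.49 on halofuginone arrays and 3.64 to 3.65 on control arrays. Cd68 fell as well (-1.79). Of the 6 immune markers 5 were lower in both lines, against 38% of all tested genes, and Ptprc was not lower in either line. Acinar markers summed to -3.16 to -3.09 on halofuginone arrays and -2.49 to -1.01 on control arrays, with Cpa1, Cpb1 and Ptf1a well above background on 0 arrays. Fibroblast markers summed to -3.68 to -1.58 on halofuginone arrays and -3.04 to -2.71 on control arrays, with Pdgfrb, Lum and Thy1 on 0 arrays. Endothelial markers summed to -2.95 to -1.10 on halofuginone arrays and -3.61 to -3.0 on control arrays, with Cdh5 and Emcn on 0 arrays. Kdr, the only endothelial marker tested, rose (2.61), a change that takes in a dim value on the control K5 array. As for the immune markers, the groups did not overlap for the epithelial, acinar and endothelial sums, whereas they overlapped for the fibroblast sum. The part of these shifts in the results below was not tested, and in bulk samples fewer cells of a type and less RNA per cell cannot be told apart.

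After halofuginone, 12 of the 33 measured members fell and 0 rose in limma's test with line as a block and Benjamini-Hochberg adjustment over all 19092 genes. Among all tested genes 5.08% fell and 3.88% rose. The 12 were Gpi1, Pfkl, Pfkm, Aldoc, Ldhb, Slc16a3, Pdk1 and Pdk3 of the 24 measured glycolysis members, and Egln3, Bnip3, Car9 and Ankrd37 of the 9 measured HIF members. At an unadjusted p under 0.05, 16 members were lower and 1 was higher, against 16.9% and 17.2% of all tested genes. Ldhb passed the filter only through its control arrays, where it was high, and without it 11 members fell. The median log2 change over the 33 members was -0.49 in K6 and -1.32 in K5, against 0.04 in K6 and -0.03 in K5 over all tested genes. The 24 glycolysis members had a median of -0.49 in K6 and -1.17 in K5, and the 9 HIF members -1.15 in K6 and -2.70 in K5. At least 2-fold lower in K6 were 15 members, against 16.4% of all tested genes, and at least 2-fold higher were 4 members, also against 16.4% of all tested genes. In K5, 20 members were at least 2-fold lower, against 14.9% of all genes, and 1 was at least 2-fold higher, against 14.1%. In both lines together 15 members were at least 2-fold lower, against 9.62%, and Eno2 alone was at least 2-fold higher, against 8.59%. The adjusted p of the 12 lay between 0.0358 and 0.0466, close to the threshold. No gene passed with the 75th percentile over probes well above background on all 4 arrays, no filter, no line block or a common floor. In that order, 18 of 33, 15 of 35, 9 of 33 and 16 of 33 members were lower at an unadjusted p under 0.05 in limma. Over all tested genes it was 3801 of 19092, 11626 of 36918, 2224 of 19092 and 2968 of 19027. With the mean over a gene's probes, 6 members fell past the threshold, against 1.93% of all tested genes.

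**Figure D1:**
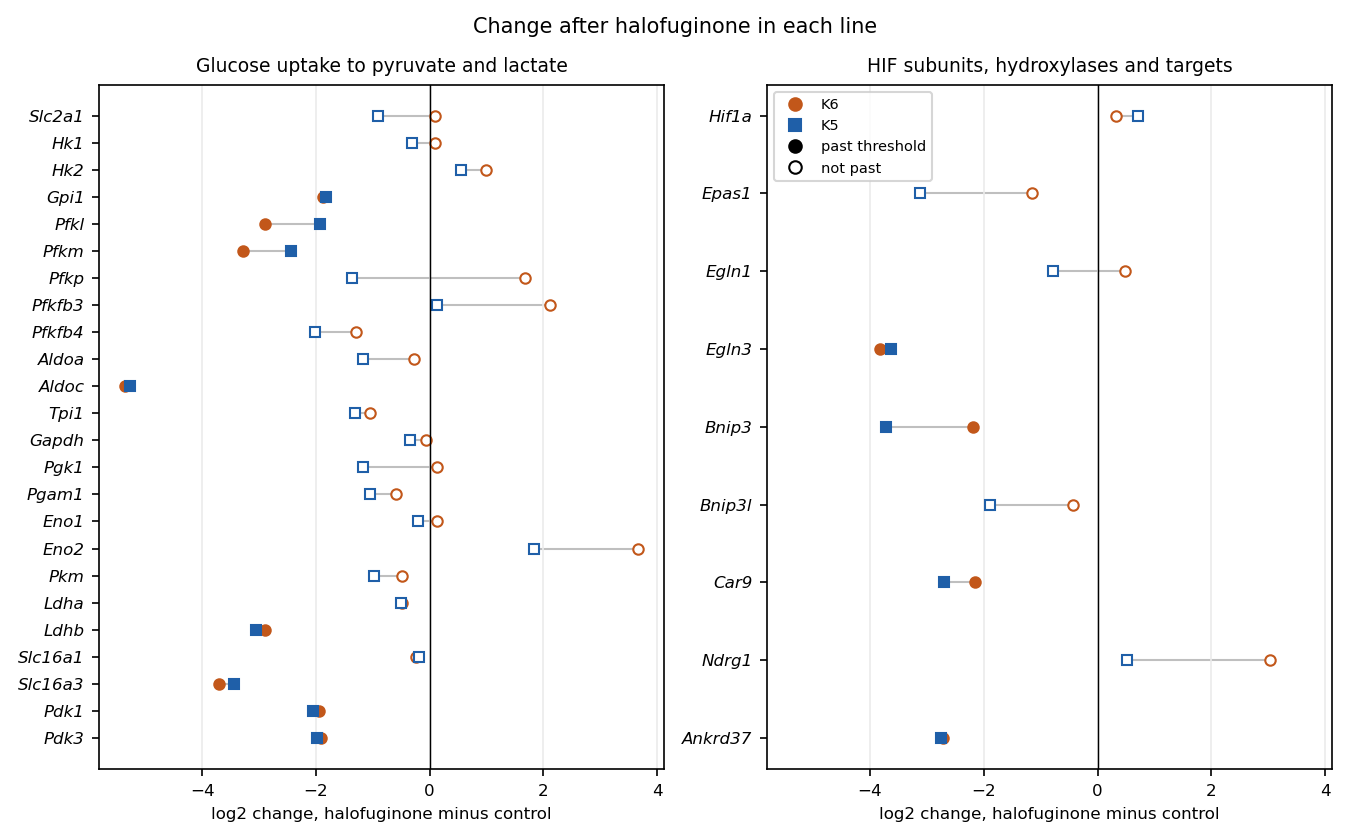
Log2 change after halofuginone (halofuginone minus control, x axis) of each measured member in K6 (circles) and K5 (squares), in pathway order from top to bottom; filled symbols are members past limma's threshold, open symbols members that are not. The filled pairs all lie left of -1 in both lines, from Aldoc at -5.36 in K6 and -5.27 in K5 to Gpi1 at -1.88 in K6 and -1.83 in K5, whereas Eno2, Ndrg1 and Pfkfb3 lie to the right of 0.

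At glucose uptake and phosphorylation no member passed the test. Slc2a1, the basal glucose transporter, read 3.80 in K6 and 3.67 in K5 after halofuginone, against 3.70 in K6 and 4.58 in K5 controls. Hk1, a housekeeping hexokinase, read 7.37 in K6 and 7.51 in K5 after halofuginone, against 7.27 in K6 and 7.82 in K5 controls. Both genes were slightly higher in K6 and lower in K5. Hk2, the inducible hexokinase of many tumours, read 3.16 in K6 and 3.11 in K5 after halofuginone, against 2.17 in K6 and 2.56 in K5 controls, so its groups did not overlap. Here and elsewhere, lack of overlap describes 2 against 2 arrays. It is given without its share over all tested genes and adds no support to a change. The Hk2 change was 0.76 (SE 0.28, limma adjusted p = 0.15).

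Gpi1, which interconverts glucose and fructose phosphates, read 4.75 in K6 and 5.69 in K5 after halofuginone, against 6.63 in K6 and 7.52 in K5 controls. Both halofuginone arrays lay below both control arrays. Gpi1 fell by 1.85 (SE 0.26, 3.61-fold lower, limma adjusted p = 0.0436), and the changes in K6 and K5 differed by -0.05.

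Phosphofructokinase commits sugar to glycolysis, and 2 of its 3 subunit genes fell. Pfkl, the liver-type subunit, read -1.60 in K6 and 0.37 in K5 after halofuginone, against 1.30 in K6 and 2.30 in K5 controls. It fell by 2.42 (SE 0.35, 5.34-fold lower, limma adjusted p = 0.0444). Pfkm, the muscle-type subunit, read -0.16 in K6 and 1.07 in K5 after halofuginone, against 3.12 in K6 and 3.51 in K5 controls. Pfkm fell by 2.86 (SE 0.33, 7.26-fold lower, limma adjusted p = 0.0390), and for both genes the groups did not overlap. Pfkp, the platelet-type subunit, read 1.96 in K6 and 0.56 in K5 after halofuginone, against 0.28 in K6 and 1.92 in K5 controls. Its change was thus 1.68 in K6 and -1.36 in K5, and the mean of 0.16 (SE 0.81, limma adjusted p = 0.90) lies near neither line's value.

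The bifunctional enzymes Pfkfb3 and Pfkfb4 set the level of fructose 2,6-bisphosphate, the activator of phosphofructokinase. Pfkfb3, whose kinase activity dominates, read 3.62 in K6 and 1.75 in K5 after halofuginone, against 1.51 in K6 and 1.62 in K5 controls. Its change was 2.11 in K6 and 0.12 in K5, and it did not pass the test (limma adjusted p = 0.24). Pfkfb4 read -2.18 in K6 and -2.86 in K5 after halofuginone, against -0.90 in K6 and -0.84 in K5 controls, with no overlap and a change of -1.65 (SE 0.31, limma adjusted p = 0.0562), just outside the threshold.

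Aldolase splits the 6-carbon sugar, and of its 2 measured isoenzymes Aldoc fell. Aldoc, the brain-type isoenzyme, read -1.55 in K6 and 0.81 in K5 after halofuginone, against 3.81 in K6 and 6.08 in K5 controls. Both halofuginone arrays lay below both control arrays. Aldoc fell by 5.31 (SE 0.26, 39.8-fold lower, limma adjusted p = 0.0358), which was the largest fall among the 33 measured members, and had changes of -5.36 in K6 and -5.27 in K5. Aldoa, the main isoenzyme of most cells, read 7.35 in K6 and 7.20 in K5 after halofuginone, against 7.62 in K6 and 8.38 in K5 controls. Its change of -0.72 (SE 0.34) did not pass (limma adjusted p = 0.22).

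The steps from triose phosphate to pyruvate held no member past the threshold. Tpi1, the triose phosphate isomerase, read 4.78 in K6 and 5.83 in K5 after halofuginone, against 5.83 in K6 and 7.15 in K5 controls. Its groups met at 5.83, and its change was -1.18 (SE 0.26, limma adjusted p = 0.0708). Gapdh, which oxidises glyceraldehyde 3-phosphate, read 8.07 in K6 and 8.16 in K5 after halofuginone, against 8.14 in K6 and 8.51 in K5 controls. Pgk1, the kinase of the first step that yields ATP, read 7.77 in K6 and 7.73 in K5 after halofuginone, against 7.64 in K6 and 8.89 in K5 controls. Pgk1 was higher in K6 and lower in K5, and the Gapdh change was -0.21 (SE 0.26, limma adjusted p = 0.62). Pgam1, the phosphoglycerate mutase, read 5.31 in K6 and 5.91 in K5 after halofuginone, against 5.89 in K6 and 6.95 in K5 controls, a change of -0.81 (SE 0.28, limma adjusted p = 0.14).

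Neither enolase gene passed the test, nor did pyruvate kinase. Eno1, the ubiquitous form, read 6.80 in K6 and 7.08 in K5 after halofuginone, against 6.68 in K6 and 7.28 in K5 controls, a change of -0.04 (SE 0.27, limma adjusted p = 0.93) whose sign turned under several scalings. Eno2, the neuronal form, read 0.82 in K6 and -1.16 in K5 after halofuginone, against -2.85 in K6 and -3.0 in K5 controls. Both halofuginone arrays lay above both control arrays. The Eno2 change was 2.76 (SE 0.53, 6.76-fold higher, limma adjusted p = 0.0562), the largest increase among the measured members and just outside the threshold. Pkm, the pyruvate kinase of most tissues and tumours, read 6.70 in K6 and 6.91 in K5 after halofuginone, against 7.19 in K6 and 7.90 in K5 controls, a change of -0.74 (SE 0.28, limma adjusted p = 0.16).

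At lactate production and export, one gene of each pair fell. Ldhb, the heart-type lactate dehydrogenase subunit, read -5.40 in K6 and -5.76 in K5 after halofuginone, both not well above background, against -2.50 in K6 and -2.71 in K5 controls. It entered the test only through its control arrays. Ldhb was at least 5.15-fold lower after halofuginone (limma adjusted p = 0.0358), a bound set by the dimmest probes well above background on those arrays. A gene that enters this way has to differ to be seen, so its p adds no support. Ldha, the muscle-type subunit, read 7.14 in K6 and 7.74 in K5 after halofuginone, against 7.63 in K6 and 8.24 in K5 controls. Ldha changed alike in both lines, by -0.49 in K6 and -0.50 in K5, without passing (limma adjusted p = 0.26).

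Slc16a3, the lactate exporter typical of glycolytic cells, read -4.53 in K6 and 1.82 in K5 after halofuginone, against -0.83 in K6 and 5.26 in K5 controls. The lines were so far apart that the halofuginone K5 array lay above the control K6 array, while each line fell. Slc16a3 fell by 3.57 (SE 0.26, 11.9-fold lower, limma adjusted p = 0.0358), with changes of -3.70 in K6 and -3.44 in K5. Slc16a1, the broadly expressed monocarboxylate transporter, read 2.99 in K6 and 3.51 in K5 after halofuginone, against 3.23 in K6 and 3.69 in K5 controls. Its change was -0.21 (SE 0.26, limma adjusted p = 0.60), and the difference from Slc16a3 was not tested.

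Pyruvate dehydrogenase kinases shut pyruvate out of the mitochondrial oxidation route, and both measured members fell. Pdk1 read 0.94 in K6 and 2.55 in K5 after halofuginone, against 2.88 in K6 and 4.60 in K5 controls. Pdk1 fell by 2.0 (SE 0.26, 3.99-fold lower, limma adjusted p = 0.0420). Pdk3 read -3.45 in K6 and -1.40 in K5 after halofuginone, against -1.53 in K6 and 0.58 in K5 controls, and fell by 1.95 (SE 0.26, 3.86-fold lower, limma adjusted p = 0.0423). Both groups of Pdk1 arrays were apart, whereas for Pdk3 the halofuginone K5 array lay just above the control K6 array.

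**Figure D2:**
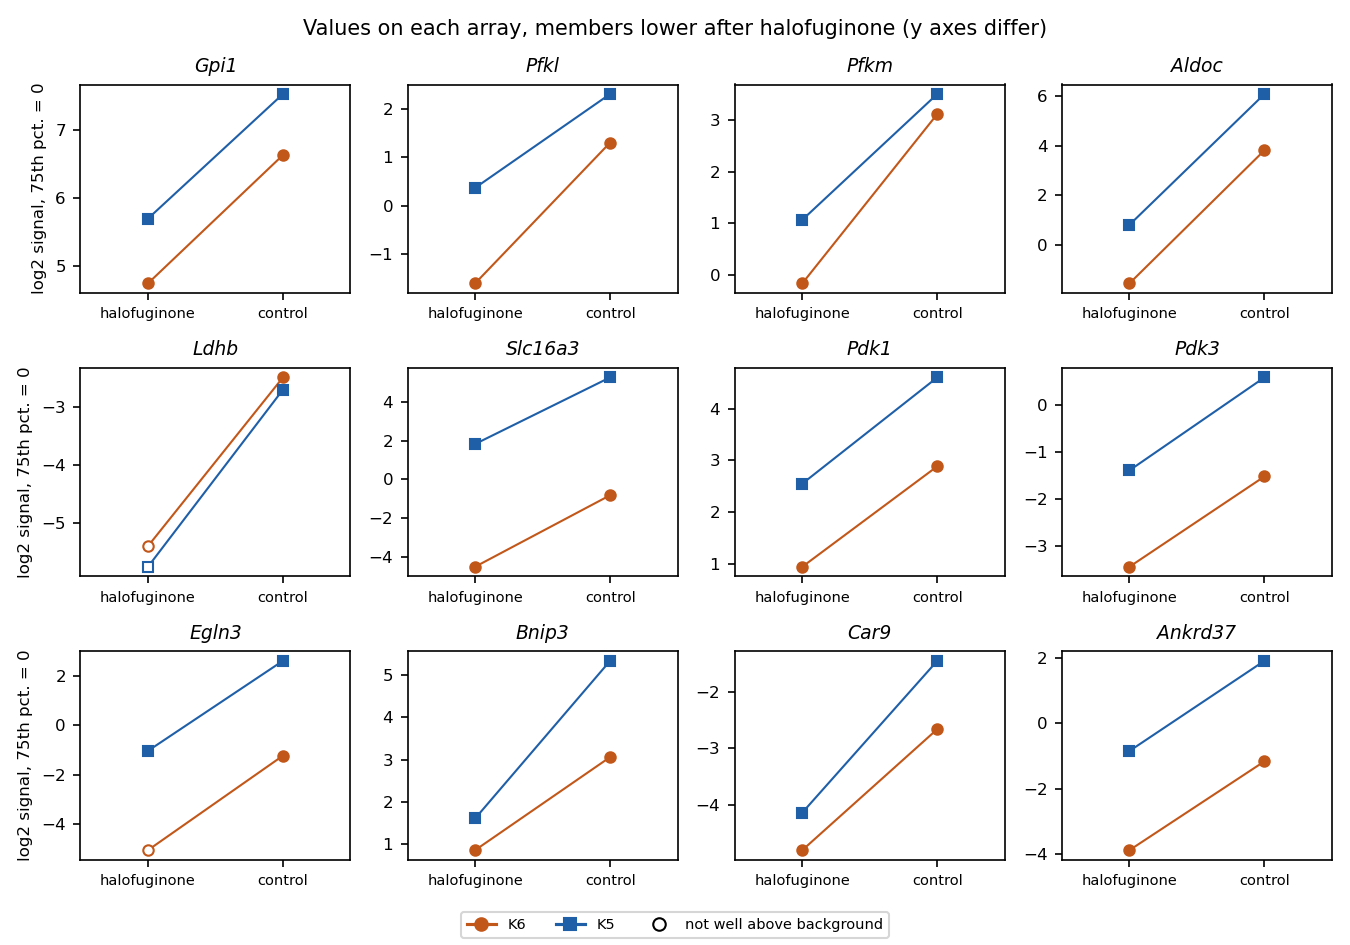
Relative log2 signal (y axis, 0 is the array's 75th percentile, scales differ between panels) of the 12 members that fell, on halofuginone and control arrays of K6 (circles) and K5 (squares), with a line joining the arrays of 1 line of cells; open symbols were not well above background. Every line slopes down toward halofuginone, and the K6 values lie under the K5 values in every panel but that of Ldhb.

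The HIF alpha subunits did not pass the test. Hif1a, the widely expressed subunit, read 4.03 in K6 and 4.38 in K5 after halofuginone, against 3.71 in K6 and 3.67 in K5 controls. Both halofuginone arrays lay above both control arrays, with a change of 0.52 (SE 0.27, limma adjusted p = 0.27). Epas1, the alpha subunit first known from endothelium, read 0.66 in K6 and -1.11 in K5 after halofuginone, against 1.80 in K6 and 2.02 in K5 controls. The Epas1 groups did not overlap either, and its change of -2.13 (SE 0.56, limma adjusted p = 0.0889) was -1.15 in K6 and -3.12 in K5. These are transcript levels, and HIF is set mainly by stability of the protein, which was not measured here.

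Of the prolyl hydroxylases, Egln1, the main oxygen sensor, read 3.87 in K6 and 3.46 in K5 after halofuginone, against 3.39 in K6 and 4.25 in K5 controls. Its change was 0.48 in K6 and -0.79 in K5. Egln3, itself a strongly inducible HIF target, read -5.06 in K6 and -1.04 in K5 after halofuginone, against -1.24 in K6 and 2.60 in K5 controls. The halofuginone K6 array was not well above background for Egln3, so 1 of 2 halofuginone arrays measured it, and the halofuginone K5 array lay above the control K6 array. Egln3 fell in the fit (limma adjusted p = 0.0358), whose change of -3.73 (SE 0.26) takes in that dim value. Its change in K5 was -3.64, and it was at least 13.7-fold lower in K6.

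Among the HIF targets, Bnip3, a mitophagy receptor, read 0.87 in K6 and 1.61 in K5 after halofuginone, against 3.06 in K6 and 5.33 in K5 controls. Bnip3 fell by 2.96 (SE 0.46, 7.77-fold lower, limma adjusted p = 0.0466), with changes of -2.20 in K6 and -3.72 in K5. Its paralog Bnip3l, also a mitophagy receptor, read 2.83 in K6 and 2.87 in K5 after halofuginone, against 3.27 in K6 and 4.76 in K5 controls. The Bnip3l groups did not overlap, but its change of -1.16 (SE 0.44) did not pass (limma adjusted p = 0.16).

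Car9, a cell-surface carbonic anhydrase of hypoxic cells, read -4.81 in K6 and -4.14 in K5 after halofuginone, against -2.66 in K6 and -1.44 in K5 controls, all 4 well above background. Car9 fell by 2.43 (SE 0.29, 5.39-fold lower, limma adjusted p = 0.0392). Ankrd37, an ankyrin-repeat gene listed among HIF targets, read -3.87 in K6 and -0.85 in K5 after halofuginone, against -1.16 in K6 and 1.91 in K5 controls. Ankrd37 fell by 2.73 (SE 0.26, 6.64-fold lower, limma adjusted p = 0.0358), with changes of -2.71 in K6 and -2.75 in K5, although the halofuginone K5 array lay above the control K6 array. Ndrg1, a stress-responsive gene counted among HIF targets, went the other way, at 7.12 in K6 and 6.62 in K5 after halofuginone, against 4.08 in K6 and 6.09 in K5 controls. Its groups did not overlap, and its change of 1.78 (SE 0.68, limma adjusted p = 0.16) was 3.03 in K6 and 0.53 in K5.

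**Figure D3:**
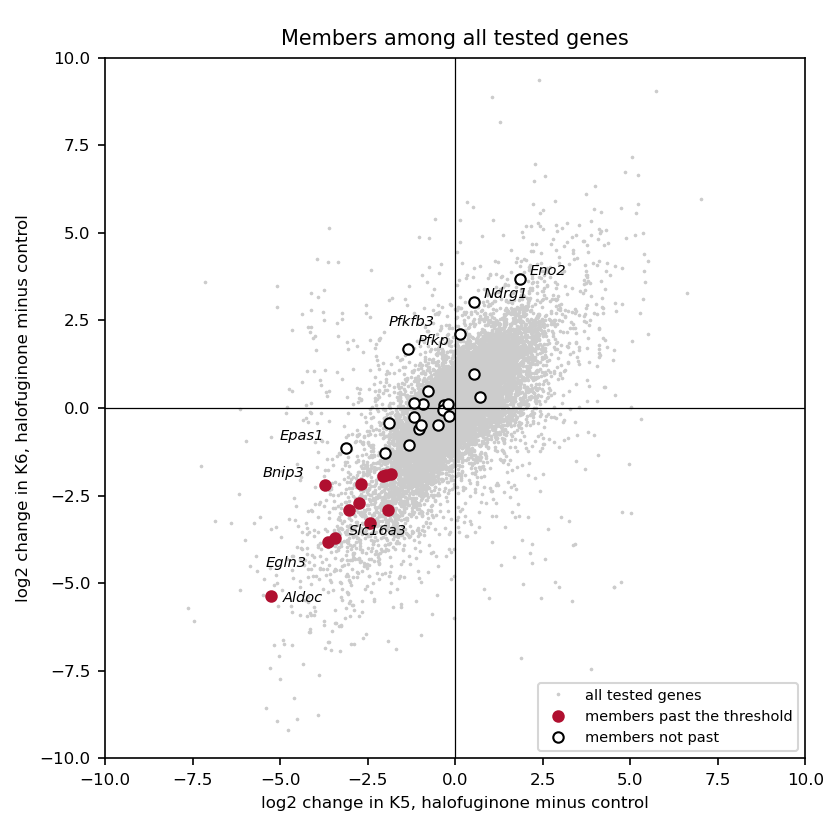
Log2 change after halofuginone in K6 (y axis) against that in K5 (x axis) for every tested gene (grey), the 12 members past limma's threshold (filled) and the other 21 measured members (open). The filled points lie in the lower left, with Aldoc farthest out, while Pfkp sits above 0 in K6 and below 0 in K5.

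The lines differed in the size of the change more for some members than for others. Of the 12 that fell, Bnip3 (1.52, K6 minus K5) and Pfkl (-0.97) differed most. The median change of the 33 measured members was -0.49 in K6 and -1.32 in K5. Over all tested genes it was 0.04 in K6 and -0.03 in K5. The widest gaps were those of Pfkp (3.04), Ndrg1 (2.51), Pfkfb3 (1.99), Epas1 (1.98) and Eno2 (1.83). The fit takes part of its spread from this same gap, so members with a wide gap passed less easily by construction. With 1 array per line and treatment, the gap itself was not tested.

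Between the lines, Slc16a3 was the only member past the threshold, lower in K6 than in K5. Among all tested genes 0.115% were lower and 0.0576% higher in K6. Slc16a3 differed between K6 and K5 by -6.35 on the halofuginone arrays (-4.53 against 1.82) and by -6.09 on the control arrays (-0.83 against 5.26). The K6 minus K5 difference was -6.22 (SE 0.26, 74.5-fold lower, limma adjusted p = 0.0446), with no overlap between lines. No member was higher in K6 at the adjusted threshold, and at an unadjusted p under 0.05 limma had 12 members lower and 0 higher, against 7.9% and 7.64% of all tested genes. The adjusted calls moved with the scaling: 9 members were lower in K6 with normexp background correction, 7 with a trended prior, and 0 without the line block, with no filter, with the mean over probes, with a common floor or with the percentile over probes well above background on all 4 arrays.

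Other members came close to that threshold and had the same sign under both treatments. Egln3 differed by -3.97 or lower on halofuginone arrays, a bound because K6 was not well above background there, and by -3.83 on control arrays (limma adjusted p = 0.0534). Ankrd37 differed by -3.02 on halofuginone arrays and -3.07 on control arrays (limma adjusted p = 0.0537). Aldoc differed by -2.36 on halofuginone arrays and -2.27 on control arrays (limma adjusted p = 0.0705). The pyruvate dehydrogenase kinases Pdk3 (-2.08, limma adjusted p = 0.0806) and Pdk1 (-1.66, limma adjusted p = 0.115) followed. These genes also fell after halofuginone.

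Counted over members, 20 of 33 were lower in K6 than in K5 on both the halofuginone and the control arrays, against 34.5% of all tested genes. Eno2 was higher in K6 on both. Ldhb was higher in K6 on control arrays and not well above background on halofuginone arrays, so it gave no direction there. The median K6 minus K5 difference over the members was -0.28 on halofuginone arrays and -0.88 on control arrays, against 0.02 on halofuginone arrays and -0.06 on control arrays over all tested genes. Pfkp turned most between treatments, at 1.40 on halofuginone arrays and -1.64 on control arrays, and Ndrg1 had 0.50 on halofuginone arrays and -2.01 on control arrays.

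**Figure D4:**
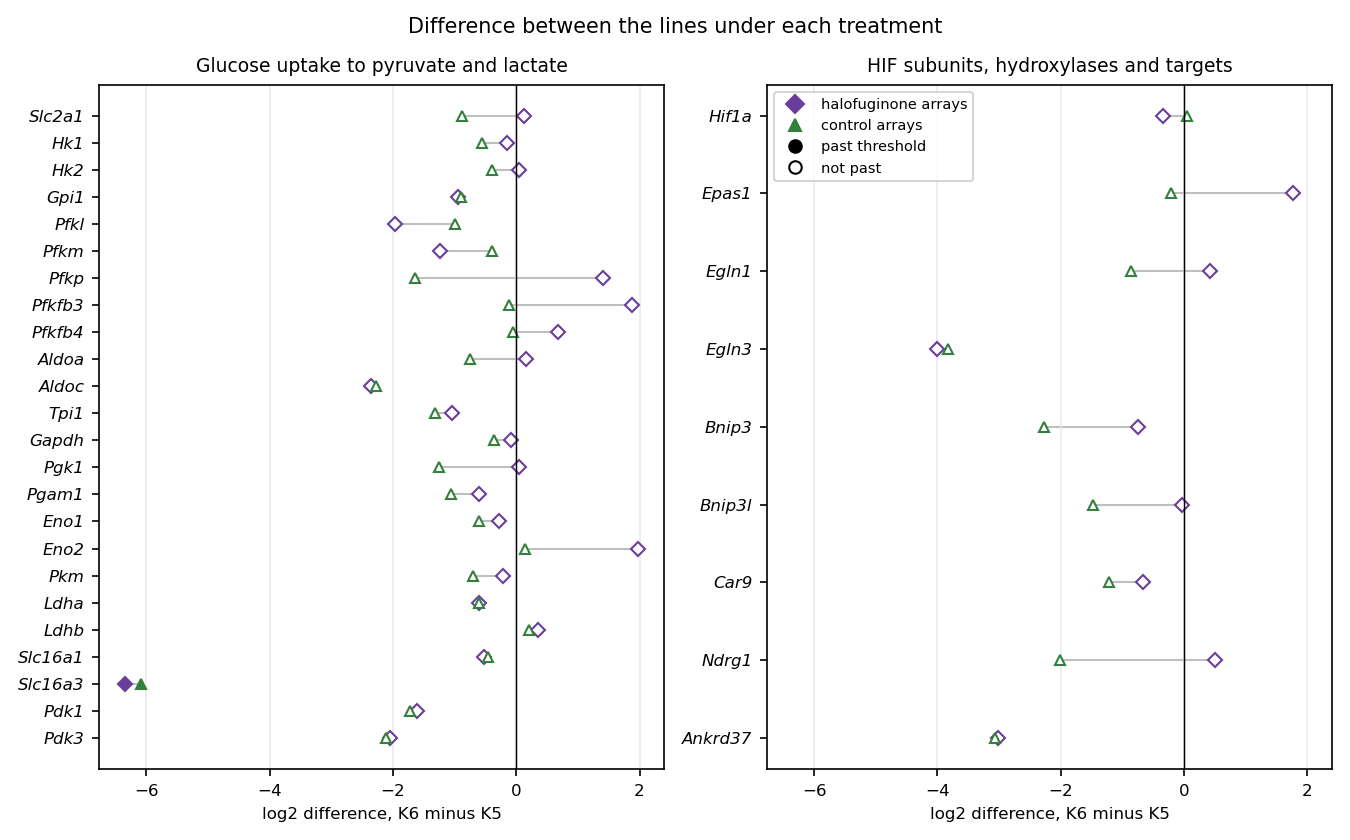
Log2 difference between the lines (K6 minus K5, x axis) of each measured member on halofuginone arrays (diamonds) and control arrays (triangles); filled symbols mark Slc16a3, the member past limma's threshold. Slc16a3 lies at -6.35 on halofuginone arrays and -6.09 on control arrays, and most triangles lie left of 0, while the diamonds of Pfkp, Pfkfb3, Eno2 and Epas1 lie right of it.

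The array held 81 probes for the 35 members, of which 67 passed the filter of 2 arrays well above background. More than 1 such probe served 17 members, and for 13 of these every probe had the sign of the brightest one in both lines. Of the members that fell, 6 had further probes past this filter (Gpi1, Pfkl, Aldoc, Pdk1, Pdk3 and Car9). These 6 were lower on every probe past the filter in both lines, dim values included, though not by the same amount. The 4 Gpi1 probes changed by -1.91 to -1.73 in K6 and -1.98 to -1.72 in K5. The 3 Aldoc probes changed by -6.90 to -5.36 in K6 and -5.27 to -5.03 in K5, the other 2 of them not well above background on the halofuginone K6 array. The Pdk1 probes well above background on all 4 arrays spanned -2.01 to -0.0025 in K6 and -2.05 to -0.42 in K5, and a further one was not well above background on either K6 array. The second Car9 probe, well above background on all 4 arrays, changed by -0.58 in K6 and -1.13 in K5, less than the brightest one, and a second Pfkl probe, for another transcript, changed by -1.91 in K6 and -0.03 in K5.

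Probe choice mattered for some members that did not pass. The Gapdh probe used, the brightest of 7, changed by -0.07 in K6 and -0.34 in K5, the smallest change of the 7 in each line. Over all 7 probes Gapdh spanned -0.35 to -0.07 in K6 and -1.07 to -0.34 in K5. Of the further probes of Hif1a and Pgk1 that passed the same filter, each is listed on the strand opposite to the gene and moved unlike the main probe, by -2.40 in K6 and 1.54 in K5 for Hif1a, and by 1.80 in K6 and -0.20 in K5 for Pgk1. Neither probe was well above background on the control K5 array, so the K5 values are not measured changes. Several members, Gapdh and Pgk1 among them, have processed pseudogenes, and cross-hybridisation of their transcripts was not tested.

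**Figure D5:**
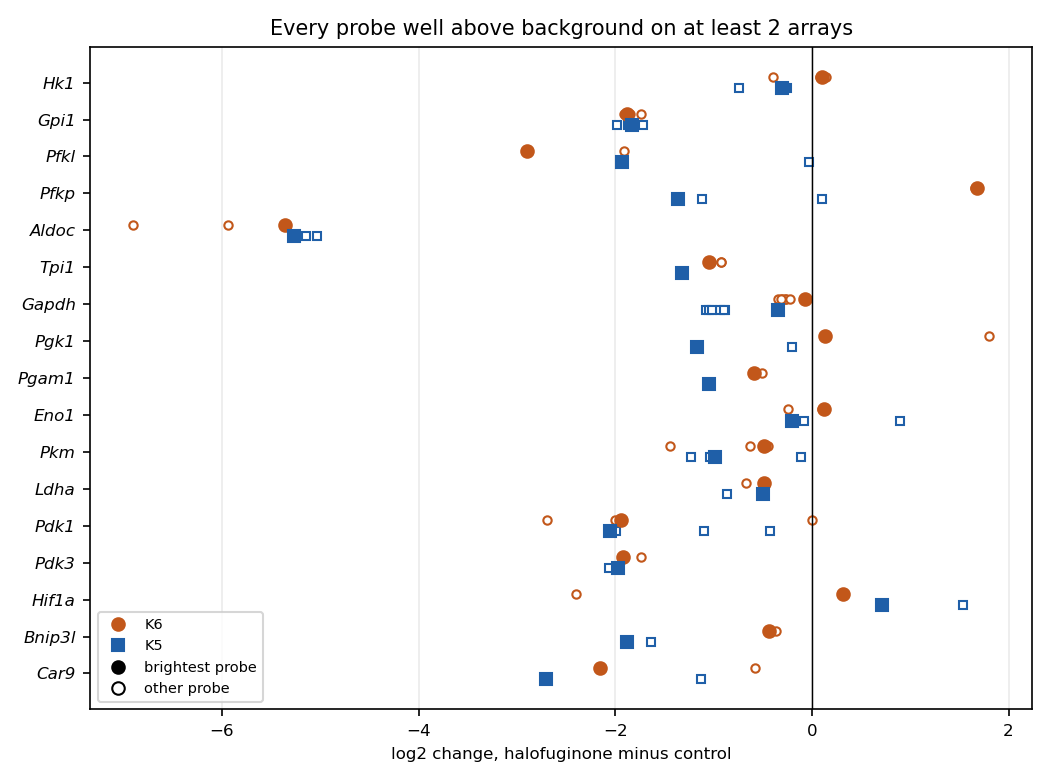
Log2 change after halofuginone (x axis) of every probe that 2 or more arrays had well above background, for the 17 members with more than 1 such probe, in K6 (circles) and K5 (squares); large filled symbols are the brightest probe, which stands for the gene. The Gpi1 and Tpi1 probes lie close together in each line, whereas those of Pdk1, Hif1a and Pgk1 spread.

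Beyond the members, 36 of 43 other glycolysis genes were measured. Of these, 7 fell and 1 rose after halofuginone, against 5.08% and 3.88% of all tested genes. Pklr, 1 of the 7, entered the test only through its control arrays, where it was high, and without it 6 fell. The glucose transporters Slc2a6 (-3.23) and Slc2a8 (-1.64) fell, as did Bpgm, which makes 2,3-bisphosphoglycerate, by 2.21. Ldhd, a D-lactate dehydrogenase, fell by 2.90, Pdk2, a further pyruvate dehydrogenase kinase, by 1.99 and a phosphoglucomutase gene, Pgm2 in the files and Pgm1 in RefSeq by its accession, by 2.0. Pklr, the liver and red-cell pyruvate kinase, was not well above background after halofuginone and was at least 7.51-fold lower. Adpgk, an ADP-dependent glucokinase, rose by 1.72 (limma adjusted p = 0.0498).

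Of 38 other hypoxia pathway genes, 32 were measured and none passed limma's test in either direction, whereas 9 were lower and 5 higher at an unadjusted p under 0.05, a threshold that 16.9% and 17.2% of all tested genes passed. Their median change was 0.40 in K6 and -0.82 in K5. Vegfa, the angiogenic factor and a classic HIF target, changed by 2.15 (2.71 in K6 and 1.60 in K5, limma adjusted p = 0.0513), opposite in sign to Car9, Egln3, Bnip3 and Ankrd37. Arnt, the stable HIF partner, changed by 0.23, Vhl, which recognises the hydroxylated alpha subunit, by 0.72, and Hif1an, the asparaginyl hydroxylase, by 0.80. Egln2, the remaining prolyl hydroxylase, changed by -1.38 (limma adjusted p = 0.0612).

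Of 7 further regulators of glucose metabolism, Myc rose by 2.21 and Mycn fell by 3.34. Arrdc4, an arrestin-like gene that restrains glucose uptake, rose by 2.26 (limma adjusted p = 0.0388).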

How the data were processed

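Per the labels' protocols, RNA was converted to Cy3-labelled cRNA for 1-colour Agilent arrays. Per the file headers, the deposited spot intensity came from Agilent Feature Extraction 10.7.1.1 (9.5.1.1 per the submitters' processing notes). It had its local background removed within the array and was unscaled across arrays. The other deposited columns used were flags for background, saturation and outliers; no spot was saturated, and all arrays lay on 1 slide. The authors' deposited value table served as an alternative: each of its columns had a median of 32.97 on a linear scale and ranked probes most like its own array, and how it was normalized is not given in these sources.

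From these intensities, outlier spots were left out, spots of a probe were averaged, and log2 values were centred on each array's 75th percentile (R 4.3.3). limma 3.58.1 (lmFit, eBayes) fitted treatment and line with 1 residual degree of freedom, adjusting p over 19092 genes with a threshold of 0.05. The line block follows the design, since K5 and K6 name the same cells under both treatments; over genes the K6 minus K5 differences of the treatments correlated with r = 0.50. The fit was also run on simulated arrays in which fewer genes changed than were called here. That run does not bear on the calls. All 35 members were accounted for; of the other lists only genes past the threshold and 5 core pathway genes were named. The members and lists were chosen with earlier results of these data known. Precision is limited by the small number of arrays. 1 marker gene of the immune list is not reported here.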

Additional observations from a re-analysis of the deposited data

Results flagged for a closer look

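For 6 of the 33 measured members the change in K6 had the opposite sign to that in K5. The same held for 4449 of all 19092 tested genes, so it is not particular to the members. The difference between the lines was not tested, with 1 array per line and treatment. Pfkp, the platelet-type phosphofructokinase subunit, changed by 1.68 in K6 and -1.36 in K5, a gap of 3.04 (K6 minus K5), and 2 of its 3 probes that passed the filter, this one included, turned this way. Pgk1 changed by 0.13 in K6 and -1.16 in K5 (gap 1.30), Egln1 by 0.48 in K6 and -0.79 in K5 (gap 1.27), and Slc2a1 by 0.10 in K6 and -0.91 in K5 (gap 1.01). The gaps of Hk1 (0.41, from 0.10 in K6 and -0.31 in K5) and Eno1 (0.33, from 0.12 in K6 and -0.20 in K5) were smaller.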

How the results depend on the processing

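The members' median change kept its sign when either line was left out (-1.32 to -0.49), values with no test, and all 12 members that fell passed again with quantile normalization, the authors' table, median centring, normexp, a trended prior, and the 75th percentile over averaged probes (chosen after seeing the data). Members higher after halofuginone numbered 1 with median centring (Eno2), 3 with normexp, and 1 each with the filter on all 4 arrays and with a trended prior. Over all genes, lower and higher calls after halofuginone were 2836 and 2566 with normexp, 2103 and 1909 with the filter on all 4 arrays, and 2163 and 2041 with a trended prior; median centring gave 1499 lower, and the mean over probes gave 6 members, 368 lower and 224 higher genes. Every count was 0 with the percentile over probes well above background on all 4 arrays, no filter, no replicate block or a common floor, where 3801, 11626, 2224 and 2968 genes were lower at an unadjusted p under 0.05 in limma; the first of these moved the median change of all genes to -0.11 and no filter moved it to -0.34, and the cause was not tested. K6 against K5 gave 3 members, 88 lower and 61 higher genes with quantile normalization, 3, 91 and 61 with the authors' table, 4, 182 and 114 with median centring, 9, 698 and 573 with normexp, 5, 160 and 145 with the filter on all 4 arrays, 7, 167 and 137 with a trended prior, 3, 97 and 70 with averaged probes, and 0 of each with the mean over probes. Signs turned for Eno1 after halofuginone (0.0694 with quantile normalization, 0.067 with the authors' table, 0.10 with the mean over probes, 0.0121 with averaged probes), for K6 minus K5 of Gapdh (0.0289 with quantile normalization and the authors' table), and with the mean over probes for Pgk1 (0.14 after halofuginone, 1.94 for K6 minus K5), Hif1a (-0.19 and 0.64) and K6 minus K5 of Pfkp (0.39). Ldhb and the K6 value of Egln3 are limited by background after halofuginone.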
